A study of Mus musculus with 2 samples.

Results

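The Hox genes were followed across the cell types of the mouse uterus. All 39 genes whose symbol is Hox, a cluster letter (a, b, c or d) and a number were taken, out of 32285 genes counted, a rule that uses names and no measured value. Cells freed by digestion from the whole uterus of female mice, 6 months of age, were profiled by droplet single-cell RNA sequencing, in which each captured transcript is counted once near its 3′ end as a unique molecular identifier (UMI). There were 2 libraries. The control library came from Prickle1 f/f mice, which carry both alleles of Prickle1 flanked by loxP sites and no Cre. The second library, called cKO here, came from Prickle1 f/f Ltf-cre mice, in which Cre recombinase is driven from the lactotransferrin gene Ltf, a gene of the adult uterine epithelium. Prickle1 encodes a planar cell polarity protein. Each library held pooled cells of 3 mice, so each genotype is 1 library, the mice within it cannot be separated, and genotype and library cannot be told apart. A further label names both samples as wild-type C57BL/6J. The genotypes used here follow the sample titles and the design text.

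Hox genes encode homeodomain transcription factors that lie in 4 clusters, Hoxa to Hoxd, and within a cluster the order of the genes mirrors the head-to-tail order of their expression in the embryo. Low numbers mark anterior genes of the hindbrain and neck, and high numbers mark posterior genes of the trunk, limbs and urogenital tract. In the female tract the posterior Hoxa genes are arranged along the Müllerian duct, with Hoxa9 known for the oviduct, Hoxa10 and Hoxa11 for the uterus, and Hoxa13 for the cervix and vagina. Hoxa10 and Hoxa11 are needed for implantation and for decidualization of the uterine stroma. Hox proteins bind DNA with partners of the TALE family (Meis, Pbx and Pknox), and Polycomb and trithorax complexes keep the clusters silent or active. In the gene annotation of mouse build GRCm38 (GENCODE M21), Hoxa spans chr6:52155590-52260880 on the minus strand with 11 genes. Hoxb spans chr11:96194316-96368256 with 10 genes, Hoxc spans chr15:102921103-103036852 with 9 genes and Hoxd spans chr2:74668310-74765142 with 9 genes, all on the plus strand. Some gene models overlap on the same strand, namely Hoxa3 with Hoxa4, Hoxa5 and Hoxa6, Hoxc5 with Hoxc6, Hoxc8, Hoxc9 and Hoxc10, and Hoxd3 with Hoxd4. Counts of these genes are uncertain in how reads were split between them.

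The 5 genes on which the results turn come from 3 clusters, and the 250 bases before their transcription starts are shown to place epithelial Hoxb8, Hoxb4 (found in epithelium and the leading Hox gene of leukocytes) and the stromal genes Hoxa10, Hoxa11 and Hoxd11 side by side. The sequences are RefSeq promoter windows of build GRCm38.p6, in which 22 of the 39 genes were matched, and each is written 5′ to 3′ on the gene's own strand. Capitals mark 3 motifs searched on both strands: TATAAA (the TATA box), CCAAT (the CCAAT box) and GGTCA (a nuclear receptor half-site), with no overlap between the motifs. Hoxb8 lies at chr11:96281655-96281904 (plus), Hoxb4 at chr11:96318017-96318266 (plus), Hoxa10 at chr6:52240855-52241104 (minus), Hoxa11 at chr6:52245811-52246060 (minus) and Hoxd11 at chr2:74679308-74679557 (plus).
Hoxb8: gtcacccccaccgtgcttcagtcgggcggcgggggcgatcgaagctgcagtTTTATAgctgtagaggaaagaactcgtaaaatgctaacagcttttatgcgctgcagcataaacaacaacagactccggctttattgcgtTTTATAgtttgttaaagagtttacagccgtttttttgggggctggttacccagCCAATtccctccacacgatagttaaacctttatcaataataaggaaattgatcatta
Hoxb4: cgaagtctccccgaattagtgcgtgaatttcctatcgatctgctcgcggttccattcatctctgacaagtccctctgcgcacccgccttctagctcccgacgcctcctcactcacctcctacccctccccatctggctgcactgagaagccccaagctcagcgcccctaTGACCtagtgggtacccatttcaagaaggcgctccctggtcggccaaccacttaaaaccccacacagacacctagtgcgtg
Hoxa10: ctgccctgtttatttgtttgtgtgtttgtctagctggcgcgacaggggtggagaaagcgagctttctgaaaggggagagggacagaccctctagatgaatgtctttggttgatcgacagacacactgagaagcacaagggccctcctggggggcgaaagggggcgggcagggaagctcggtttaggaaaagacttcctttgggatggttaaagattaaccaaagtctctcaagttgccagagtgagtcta
Hoxa11: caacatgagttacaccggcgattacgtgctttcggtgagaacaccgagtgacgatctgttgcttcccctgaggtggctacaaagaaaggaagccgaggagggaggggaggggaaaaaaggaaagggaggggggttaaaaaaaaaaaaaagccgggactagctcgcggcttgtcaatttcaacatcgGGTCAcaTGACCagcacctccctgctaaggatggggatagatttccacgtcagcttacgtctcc
Hoxd11: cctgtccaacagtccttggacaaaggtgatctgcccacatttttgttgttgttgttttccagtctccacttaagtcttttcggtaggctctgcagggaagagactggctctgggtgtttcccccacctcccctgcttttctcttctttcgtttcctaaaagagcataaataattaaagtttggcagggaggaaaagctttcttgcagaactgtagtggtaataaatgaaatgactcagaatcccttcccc
The Hoxb8 window held 2 TATAAA matches and 1 CCAAT match, the Hoxb4 window held 1 GGTCA match and the Hoxa11 window held 2 GGTCA matches. The Hoxa10 and Hoxd11 windows held none of the 3. Among 32851 promoter windows of the same length, 12.37% held TATAAA, 33.85% held CCAAT and 35.24% held GGTCA. The windows held 12 CpG dinucleotides at Hoxb8, 14 at Hoxb4, 7 at Hoxa10, 13 at Hoxa11 and 2 at Hoxd11, against a median of 6 over all windows. Hoxa10 and Hoxd11 each have a second annotated start, 5915 and 2766 bases away, whose windows are not printed. The second Hoxa10 window held 1 TATAAA match, 1 CCAAT match and 20 CpG dinucleotides, and the second Hoxd11 window held none of the motifs and 20 CpG dinucleotides.

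After cells with fewer than 500 detected genes or more than 20% mitochondrial UMIs were left out, 3653 control and 4950 cKO cells remained, with medians of 4650 and 5944 UMIs per cell. A total of 5 barcodes occurred among the cells of both libraries. Cells were gated into 5 classes by a UMI of 1 gate gene and none of the other 4: Epcam for epithelium, Pdgfra for stromal fibroblasts, Actg2 for smooth muscle, Msln for the mesothelium that covers the organ, and Ptprc for leukocytes. The classes held 921 control and 59 cKO Epcam cells, 608 and 1409 Pdgfra cells, 291 and 501 Actg2 cells, 25 and 32 Msln cells, and 665 and 1527 Ptprc cells. Every marker of each class's own list was detected in both libraries, and the summed epithelial markers of the Epcam class were at 12081.5 CPM (UMIs per 1e6 UMIs of the class) in control and 10559.5 in cKO, against 31.5 and 9.97 in the Pdgfra class. In the Msln class the mesothelial markers summed to 1823 and 2657 CPM. Its stromal list was mostly Dcn, at 9274 and 12624.7 CPM against 5908 and 4369 in the Pdgfra class, while Dpt was at 4.42 and 72.4 against 1073 and 1101. Its lymphatic endothelial markers summed to 0 in control and 688 in cKO. Prickle1 itself was counted 12 times in control Epcam cells and 4 times in cKO Epcam cells, 0.739 CPM (95% interval 0.382 to 1.29) and 1.92 (0.523 to 4.91). The 3′ counts may lie outside the deleted part, so they do not check the deletion. All intervals are exact 95% intervals for counting error within a library. They do not cover variation between mice, and no test between genotypes was possible.

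Hox transcripts were present in every class, at levels that differed widely. Levels are given as CPM, the counts of a gene over all cells of a class divided by all UMIs of that class and scaled. Because each transcript is counted once at its 3′ end, the scale is not divided by gene length. Summed over the 39 genes, mesothelial cells stood highest, at 699 CPM (594 to 817) in control and 941 (830 to 1063) in cKO. Muscle cells followed at 414 (368 to 463) and 747 (701 to 794), and stromal cells at 322 (310 to 335) and 465 (457 to 474). In epithelial cells the sum was 166 (159 to 172) in control and 193 (175 to 213) in cKO. Leukocytes were lowest, at 20.6 (16.8 to 25.1) and 22.8 (20.04 to 25.9), which is below the 151 and 298 CPM found in the cell-free RNA of the same libraries, taken from barcodes with at most 100 UMIs. By this pooled level the order of the 5 classes was the same in both libraries, and neighbouring classes had intervals that did not overlap. By the share of cells with any Hox UMI at 1000 UMIs per cell, control muscle (25.3%) was below control stroma (28.1%). In cKO that share was 45.6% in muscle, 45.2% in mesothelium and 33.3% in stroma. On the log2 scale the summed level of epithelium relative to stroma was -0.96 in control and -1.27 in cKO. The cKO value was -0.31 without the 5% of cells with the most UMIs, and -0.52 when each cell weighed the same.

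**Figure D1:**
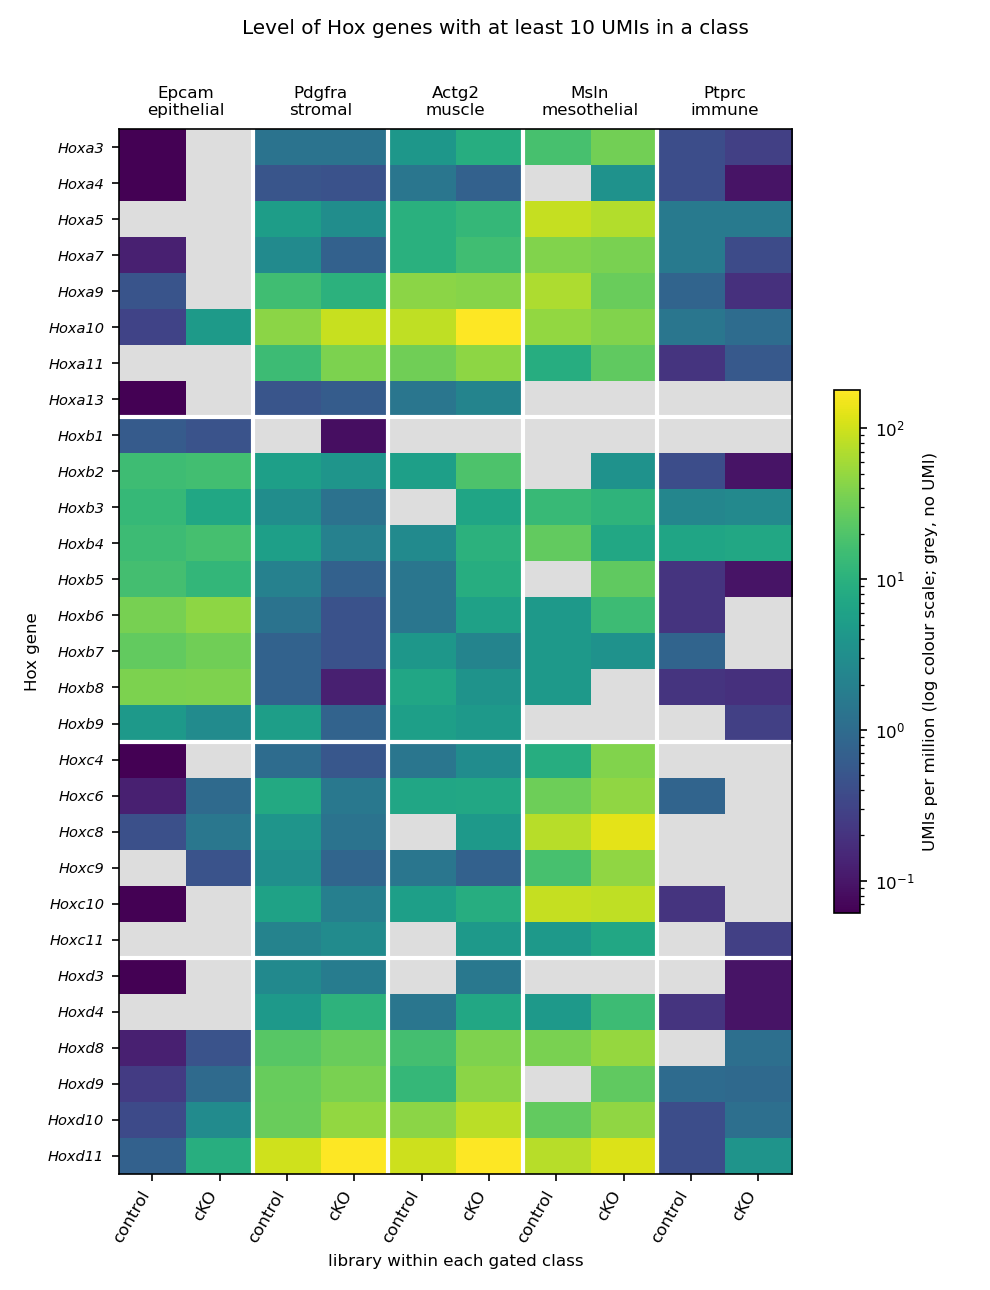
Heat map of the level (CPM, log colour scale) of each Hox gene that reached 10 UMIs in a class of a library, in rows, by gated class and library in columns. Genes of the Hoxb cluster are high in the Epcam columns, posterior Hoxa and Hoxd genes in the Pdgfra and Actg2 columns.

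The share of each cluster differed between the classes. In the epithelium 97.9% of control Hox UMIs and 88.6% of cKO Hox UMIs came from Hoxb, while Hoxd supplied 0.930% and 6.95%. The stroma was the reverse, with 58.2% and 64.4% from Hoxd, 26.6% and 31.4% from Hoxa, and 7.54% and 2.13% from Hoxb. Muscle had its Hox UMIs in nearly equal parts from Hoxa (46.8% and 41.2%) and Hoxd (42.1% and 46.5%). Mesothelium was the class in which Hoxc was large, at 32.3% and 38.8%, against 0.409% to 7.65% for Hoxc in the other 4 classes. The posterior genes of paralog groups 9 to 13 made up 77.4% and 87.1% of stromal Hox UMIs, 79.8% and 78.7% in muscle, 48.1% and 45.8% in mesothelium, and 4.17% and 11.2% in epithelium.

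**Figure D2:**
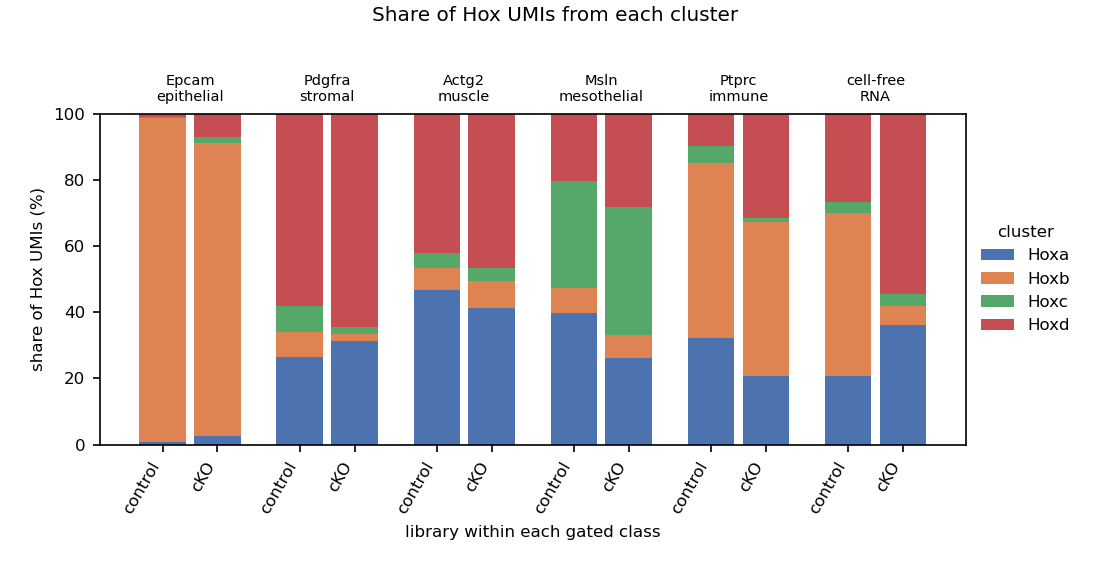
Stacked bars of the share of Hox UMIs (percent, from 0 to 100) that came from each of the 4 clusters, for each gated class in control and cKO. Hoxb fills 97.9% of the control Epcam bar and 7.54% of the control Pdgfra bar, and Hoxc is widest in the Msln bars.

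Epithelial cells expressed a run of neighbouring genes, Hoxb2 to Hoxb8, and few transcripts of the other clusters. Hoxb8, known from thoracic patterning and blood progenitors, had 594 UMIs in control Epcam cells, a level of 36.6 CPM (33.7 to 39.6), and 79 UMIs in cKO, 37.9 CPM (30.0 to 47.2). At least 1 Hoxb8 UMI was found in 31.3% of control and 37.3% of cKO Epcam cells. Its neighbour Hoxb6 was at 35.2 CPM (32.4 to 38.2) in control and 46.5 (37.7 to 56.8) in cKO, found in 30.2% and 40.7% of cells. The 2 genes thus lay at similar levels within each library. Hoxb7, which lies between them, was at 26.2 CPM (23.8 to 28.9) and 31.7 (24.5 to 40.3). The more anterior genes of the block were lower. Hoxb5 was at 16.3 CPM (14.4 to 18.4) in control and 12 (7.76 to 17.7) in cKO, and Hoxb4 at 14.7 (12.9 to 16.7) and 16.8 (11.7 to 23.4). Hoxb3, a hindbrain gene in the embryo, was at 13.1 CPM (11.4 to 14.9) and 7.2 (4.03 to 11.9). Hoxb2, which patterns the hindbrain and facial nerve, was at 14.8 CPM (13 to 16.8) and 15.8 (10.9 to 22.2). The intervals of Hoxb2, Hoxb3, Hoxb4 and Hoxb5 overlapped in each library, and no order among these 4 was tested. In control the block ended sharply on both sides, with Hoxb9 at 4.62 CPM (3.63 to 5.79) and Hoxb1 at 10 UMIs. In cKO Hoxb9 was at 2.88 CPM (1.06 to 6.26), an interval that overlapped that of Hoxb3, and Hoxb1 had 1 UMI. Hoxb13, the gene at the far end of the cluster, had no count in either library.

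Measured against stromal cells of the same library, 7 of the 23 Hox genes with at least 20 UMIs over both classes were at least 2-fold higher in control epithelium, and these 7 were Hoxb2 to Hoxb8. Of the 7, Hoxb2 (log2 ratio 0.41) and Hoxb4 (0.70) were under 2-fold when each cell weighed the same, and Hoxb2 (0.09) also with cells thinned to 1000 UMIs. Of all genes tested the same way, 24.7% were at least that much higher. A further 15 were at least 2-fold lower, in a comparison where 33% of all genes were. The median log2 ratio of the 23 was -4.63, against -0.32 over all genes. Hoxb8 was 48.0-fold higher in epithelium (21.9 to 131), Hoxb7 34.4-fold, Hoxb6 27.7-fold and Hoxb5 8.02-fold, whereas Hoxb4 was 2.63-fold and Hoxb2 2.71-fold higher. The contrast was thus widest in the posterior part of the block. Hoxb9, the next gene along, did not differ by more than counting error in control, with a ratio of 0.865 (0.585 to 1.29). Its log2 ratio was -0.21 there and ran from -0.23 to 1.20 over the other settings. In the cKO library 8 of 24 Hox genes were at least 2-fold higher in epithelium, Hoxb2 to Hoxb9, beside 21% of all genes, and 10 were lower, beside 21.2% of all genes. Of the 10, Hoxa5 and Hoxa9 turned direction with other gate genes ignored (log2 ratios 1.82 and 0.26). Hoxb8 was 307-fold higher there (101 to 1519), on 3 stromal UMIs, and Hoxb9 3.68-fold. Over the other filters, gates and depths tried, the log2 ratio of Hoxb8 ran from 3.23 to 6.42 in control and from 2.98 to 9.27 in cKO.

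Between genotypes the summed level of the epithelial Hoxb block was close, while its single genes were not settled by 59 cKO cells. The summed Hoxb level of cKO was 1.06 times that of control (0.943 to 1.18), and Hoxb8 itself 1.04 times (0.809 to 1.31). Hoxb6 was 1.32 times the control level (1.05 to 1.64) and Hoxb3 0.551 times (0.303 to 0.930). Those intervals exclude 1 for counting error but rest on 97 and 15 cKO UMIs. Over the other settings the log2 ratio of Hoxb8 ran from -1.47 to 0.66, that of Hoxb6 had a lowest value of -0.43 and that of Hoxb3 ran from -1.21 to 0.78, so the direction of each of these 3 genes turned with the setting. Of 9 Hox genes with at least 20 UMIs, only Hoxd11 was at least 2-fold higher in cKO epithelium, beside 21.9% of all genes, and none was at least 2-fold lower, beside 11.8%.

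Posterior Hoxa and Hoxd transcripts were scarce in epithelial cells. Hoxd11 had 12 UMIs in 921 control Epcam cells, 0.739 CPM (0.382 to 1.29), and 19 in 59 cKO cells, 9.11 CPM (5.49 to 14.2), a ratio of 12.3 (5.68 to 27.9). On the log2 scale this is 3.62, with a range of 2.40 to 5.18 over the other settings. Hoxa10 had 5 UMIs in control and 10 in cKO, of which 70% lay in 1 cell. Hoxa11 had no count in Epcam cells of either library. The cells with any Hoxa or Hoxd UMI of paralog groups 9 to 13 numbered 17 in control and 11 in cKO, and 7 and 6 of these also held Col1a1, a fibroblast collagen. These cells held 14 of the 36 such UMIs in control and 29 of 37 in cKO. In the remaining Epcam cells Col1a1 was found in 1.77% and 20.8%. When Epcam cells were divided by Krt8, an epithelial keratin, the 48 cKO cells with Krt8 were at 5.58 CPM for summed Hoxd and 180 for Hoxb, and the 11 cells without Krt8 at 149 and 26.3. In control the 886 cells with Krt8 were at 1.18 CPM for Hoxd and 162 for Hoxb, against 39.0 and 240.4 in the 35 without it. The cKO Epcam class also carried 261 CPM of summed lymphatic markers, against 9.11 in control. Its summed muscle markers were at 609 CPM against 27.6, of which Acta2 alone was 565 and 9.36, while Myh11, a defining smooth muscle gene, was at 0 and 1.29. Hoxd11 was at 77.5 CPM in the cell-free RNA of cKO and at 19.8 in that of control, and Hoxa10 at 68.3 and 14.0. The part of these other cells and of cell-free RNA in the epithelial Hoxd11 value was not tested.

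Glandular cells, taken as Epcam cells with a UMI of the gland transcription factor Foxa2, were few (15 control, 4 cKO) and also used Hoxb. All 73 of their Hox UMIs in control and 107 of 108 in cKO came from Hoxb. Their summed Hox level was 141 CPM in control, near the 166 of Epcam cells without Foxa2, and 376 in cKO, against 164 without Foxa2. The 4 cKO cells allow no comparison beyond these values.

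In stromal cells the posterior genes of Hoxd and Hoxa dominated, and of these Hoxa10, Hoxa11, Hoxd10 and Hoxd11 were higher in the cKO library and Hoxa9 was lower with all UMIs counted, while Hoxa11 and Hoxd10 were near equal with cells thinned to 1000 UMIs. Hoxd11, a limb and kidney patterning gene, was the most abundant Hox gene there, with 784 UMIs in control, 99.7 CPM (92.8 to 107), and 4209 in cKO, 173 CPM (168 to 179). It was found in 43.9% of control and 67.3% of cKO Pdgfra cells. Hoxa10, the gene of stromal decidualization and implantation, was next in cKO at 91.8 CPM (88.0 to 95.7), and at 44.6 (40.1 to 49.5) in control. Hoxa10 was found in 32.9% and 49.8% of cells. Hoxd10 was at 29 CPM (25.3 to 33.0) in control and 48.6 (45.9 to 51.5) in cKO, Hoxd9 at 28 (24.4 to 31.9) and 36.0 (33.7 to 38.5), and Hoxd8 at 22.8 (19.5 to 26.3) and 28.9 (26.8 to 31.1). Those 3 genes had overlapping intervals in control and separated in cKO. Hoxa11, which acts with Hoxa10 in the uterus, was at 14.7 CPM (12.2 to 17.7) and 37.5 (35.0 to 40.0). Hoxa9, the oviduct member of the series, was at 15.4 CPM (12.8 to 18.4) in control and 10.3 (9.10 to 11.7) in cKO. In control, then, Hoxa9 and Hoxa11 lay at similar levels, while in cKO Hoxa11 stood above Hoxa9. The genes at the posterior ends were nearly silent, with Hoxa13, the cervical and vaginal member, at 4 and 15 UMIs and Hoxd13 at 4 and 4.

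Relative to control, cKO stroma held Hoxa11 at 2.54 times the level (2.09 to 3.11), Hoxd4 at 2.31 times (1.62 to 3.37) and Hoxa10 at 2.06 times (1.84 to 2.31). These were the 3 of 24 Hox genes at least 2-fold higher, beside 6.07% of all 13283 genes tested. Hoxd11 was at 1.74 times (1.61 to 1.88), Hoxd10 at 1.68 times (1.46 to 1.94), Hoxd9 at 1.29 times (1.11 to 1.50) and Hoxd8 at 1.27 times (1.08 to 1.51). The intervals of Hoxd11 and Hoxd8 did not overlap, and those of each pair of neighbours did. Hoxa9 was at 0.672 times the control level (0.539 to 0.842) and so lay on the other side of 1 from its neighbours Hoxa10 and Hoxa11. Summed over all members the ratio was 1.44 (1.38 to 1.51), which is 0.53 on the log2 scale. It was 0.26 when each cell was thinned to 1000 UMIs and 0.29 when each cell weighed the same, in a class whose median depth was 11610.5 UMIs per cell in control and 15533 in cKO. At 1000 UMIs the log2 ratio of Hoxa11 was -0.06 against 1.34 with all UMIs, that of Hoxd10 was 0.01 against 0.75, that of Hoxd8 was -0.27 against 0.35, and that of Hoxd4 was 0.26 against 1.20. Hoxa10 was at 0.64 against 1.04, so none of the 3 stayed past 2-fold at that depth, and Hoxd11 was at 0.91 against 0.80. Those values for Hoxa11 rest on 16 control and 35 cKO cells with a UMI, and those for Hoxd10 on 22 and 61. With 5000 UMIs per cell, Hoxa10 was found in 18.2% of 456 control and 28% of 1231 cKO stromal cells, and Hoxd11 in 28.9% and 46.0%. Hoxa11 was found in 7.46% (5.22 to 10.3) and 12.4% (10.6 to 14.3), and Hoxd10 in 12.9% (10.0 to 16.4) and 19.4% (17.2 to 21.7). Hoxd9 (12.9% and 13.2%) and Hoxd8 (9.87% and 11.9%) were closer.

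**Figure D3:**
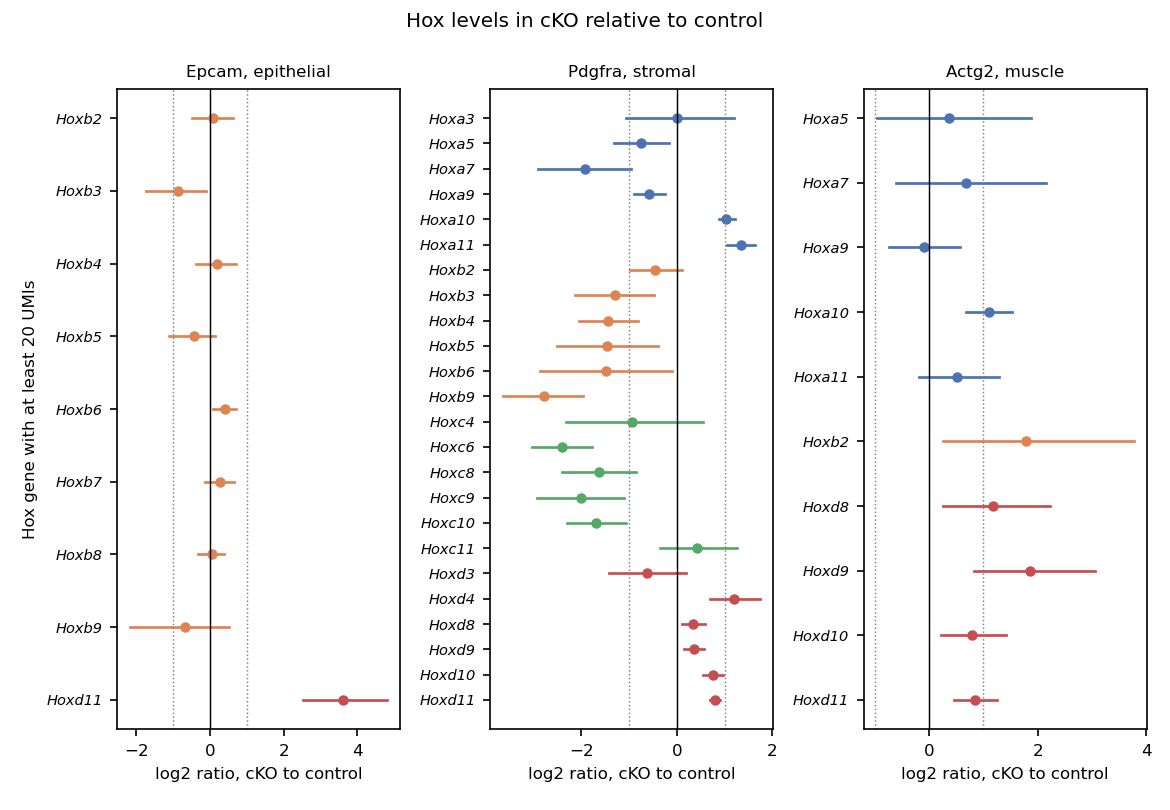
Log2 ratio of cKO to control (points) with exact 95% intervals for counting error (bars) for each Hox gene with at least 20 UMIs, in Epcam, Pdgfra and Actg2 cells, with colours for the 4 clusters and dotted lines at 2-fold. In the Pdgfra panel Hoxa10, Hoxa11 and Hoxd4 lie past 2-fold on the right, and most Hoxb and Hoxc genes lie on the left.

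Stromal levels of Hoxb and Hoxc were lower in cKO. Summed Hoxb was at 24.3 CPM in control and 9.93 in cKO, a ratio of 0.409 (0.337 to 0.497), and summed Hoxc at 24.7 and 9.27, a ratio of 0.376 (0.309 to 0.458). Of the 24 Hox genes, 10 were at least 2-fold lower (Hoxa7, Hoxb3, Hoxb4, Hoxb5, Hoxb6, Hoxb9, Hoxc6, Hoxc8, Hoxc9 and Hoxc10), beside 6.65% of all genes. The median log2 ratio of the 24 was -0.69 and that of all genes -0.02. Hoxb9, which acts with its paralogs in mammary development, was at 5.34 CPM in control (42 UMIs) and 0.783 in cKO (19 UMIs), a 6.82-fold difference. Hoxc6, a thoracic gene, was at 7.75 CPM (61 UMIs) and 1.48 (36 UMIs), a 5.23-fold difference. Hoxc10, a lumbar gene of the embryo, was at 6.1 and 1.90 CPM, Hoxc8 at 3.94 and 1.28, and Hoxb4 at 5.59 and 2.06. Hoxc11 was at 2.16 and 2.88 CPM, a ratio of 1.34 whose interval included 1. Hoxc9 in cKO had 45% of its 20 UMIs in 1 cell. Cells thinned to 1000 UMIs gave no Hox gene with a 2-fold difference and at least 20 UMIs. The thinned log2 ratios of Hoxc6 (-3.03, against -2.39 with all UMIs) and Hoxb4 (-2.23, against -1.44) were no smaller, on counts under that minimum, while those of Hoxb9 (-0.64, against -2.77) and Hoxb3 (-0.64, against -1.30) were under 2-fold.

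Cell-free RNA also differed between the libraries, with 49.2% of its Hox UMIs from Hoxb in control and 5.73% in cKO. Summed Hoxb was at 74.5 CPM in control cell-free RNA and 17.1 in cKO, with Hoxb6 at 18.2 and 1.31, Hoxb8 at 17.5 and 0.438, and Hoxb9 at 1.94 and 0.875. The stromal Hoxb genes had another order. In control stroma Hoxb4, Hoxb2 and Hoxb9 had 44, 43 and 42 UMIs, and Hoxb6 and Hoxb8 had 10 and 6, whereas in control epithelium Hoxb8 and Hoxb6 led and Hoxb9 was low. Among control stromal cells with a Hoxb UMI, 9.92% also held the keratin Krt8, against 7.39% of the others, and 17 of the 191 Hoxb UMIs lay in such cells. In cKO the shares were 1.75% and 2.75%, with 6 of 241 UMIs. Hoxc was 3.33% and 3.52% of cell-free Hox UMIs. Marker sums of other cell types also differed in the Pdgfra class, with lymphatic endothelial markers at 178 CPM in control and 24.7 in cKO, red cell markers at 61.6 and 1.20 (hemoglobins) and immune markers at 59.9 and 456. The immune sum was nearly all Srgn, at 54.5 and 446 CPM, while Tyrobp was at 1.14 and 1.11. The part of cell-free RNA and of these cells in the stromal Hoxb and Hoxc ratios was not tested.

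Stromal cells are not uniform, and the make-up of the Pdgfra class differed between the libraries. Cells with a UMI of Hsd11b2 (a glucocorticoid-inactivating enzyme) and of none of Inmt, Cilp and Cyp26b1 were 6.58% of the class in control and 22.9% in cKO. Those with Inmt alone were 13.8% and 1.70%, with Cilp alone 13.2% and 17.3%, with Cyp26b1 alone 2.14% and 2.98%, and with none of the 4 genes 52.8% and 33.1%. Within the Hsd11b2 cells, summed Hox was at 368 CPM in control and 546 in cKO, a ratio of 1.48 (1.28 to 1.72). Cells with Inmt (a methyltransferase) were at 256 and 333 CPM, a ratio of 1.3 (1.03 to 1.63). Cells with Cilp (a matrix protein) were at 342 and 371, a ratio of 1.09 (0.974 to 1.21), and the 13 control and 42 cKO cells with Cyp26b1 (a retinoic acid-degrading enzyme) at 472 and 556. Cells with none of the 4 genes were at 331 and 388, a ratio of 1.17 (1.09 to 1.26). In each of the 5 groups of stromal cells the cKO level was the higher value, with intervals that included 1 for Cilp and Cyp26b1. Cells with several of the 4 genes are in none of these groups, and their level is not given. The group values use all UMIs, and depth differed. Median UMIs per cell in control and cKO were 10090 and 16725.5 for Hsd11b2, 14222 and 14341.5 for Inmt and 14691 and 16268 for Cilp. They were 12431 and 17761 for Cyp26b1, and 9266 and 11259.5 for cells with none of the 4.

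The ratio of Hoxa10 varied between the groups. In Hsd11b2 cells it was at 45.1 CPM in control and 123 in cKO, a ratio of 2.73 (1.82 to 4.29). In Cilp cells it was at 46.6 and 54.3, a ratio of 1.17 (0.868 to 1.59). Cells with none of the 4 genes lay between, with Hoxa10 at 48.6 and 68.3 CPM and a ratio of 1.41 (1.17 to 1.70). In Inmt cells Hoxa10 was at 29.1 and 73.6 CPM, a ratio of 2.53 (1.44 to 4.38). In the few Cyp26b1 cells it was at 42.4 (7 UMIs) and 140.2 CPM (98 UMIs), a ratio of 3.31 (1.55 to 8.45), the highest value of the 5 groups. Its level was the higher value in cKO in each of the 5. The differences between the ratios were not tested. Hoxa11 was at 26.3 and 49.5 CPM in Hsd11b2 cells, 15.6 and 25.5 in cells with none of the 4, and 17.2 and 13.3 in Cilp cells, a ratio of 0.777 in the last. It was at 12.6 and 19.2 CPM in Inmt cells, and at 6.05 (1 UMI) and 50.05 (35 UMIs) in Cyp26b1 cells. Hoxd11 was higher in cKO in Hsd11b2 cells (115 and 201 CPM), Inmt cells (66.0 and 105.6), Cilp cells (98 and 146) and cells with none of the 4 (108 and 151), with ratios from 1.40 to 1.75. In Cyp26b1 cells Hoxd11 was at 224 and 200.2 CPM. Hoxd10 gave ratios of 0.960 in Hsd11b2 cells, 2.40 in Inmt cells, 1.11 in Cilp cells, 1.23 in Cyp26b1 cells and 1.53 in cells with none of the 4. Hoxd9, at 1.29 times in the whole class, was near 1 or lower within the groups, with ratios of 0.701 (0.472 to 1.08) in Hsd11b2 cells, 0.978 in Inmt cells, 1.01 in Cilp cells, 0.912 in Cyp26b1 cells and 0.909 (0.692 to 1.20) in cells with none of the 4. Cells with several of the 4 genes are in no group but count in the whole class. The group values therefore do not account for the class ratios, such as that of Hoxd9.

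**Figure D4:**
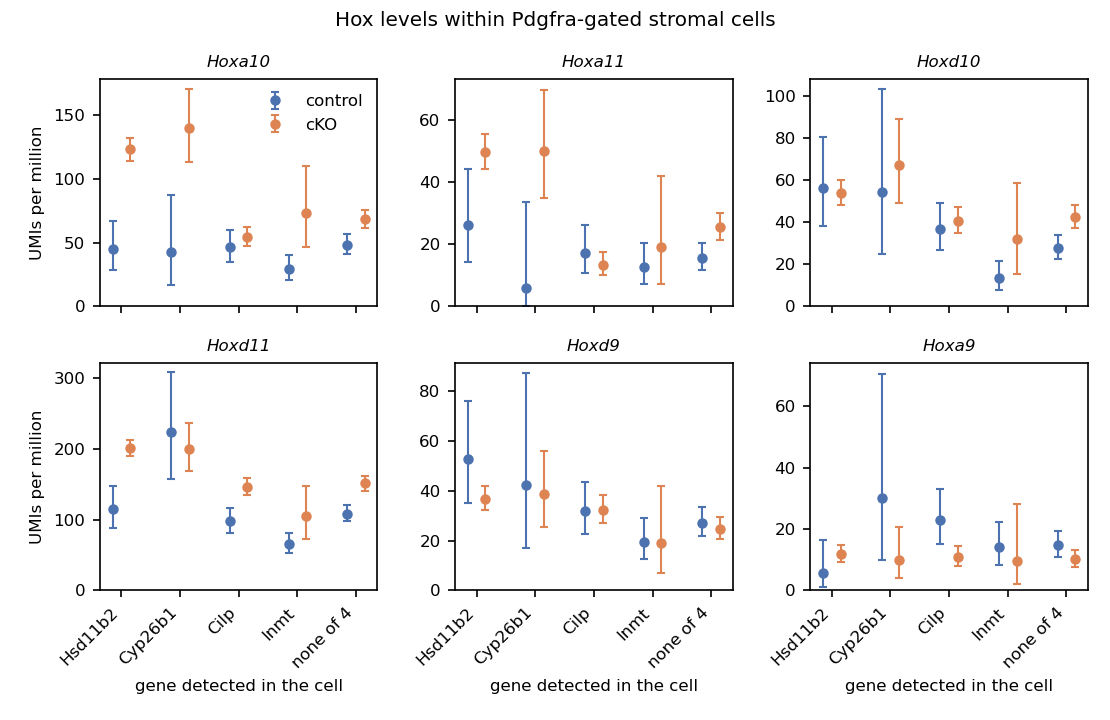
Levels (CPM) of single Hox genes, 1 panel each, in Pdgfra cells divided by a UMI of Hsd11b2, Inmt, Cilp, Cyp26b1 or none of these, with points for control and cKO and bars for exact 95% counting intervals. Hoxa10 is at 123 CPM in cKO Hsd11b2 cells and at 54.3 in cKO Cilp cells.

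Summed Hoxb and Hoxc were also the lower values of cKO in each of the 5 groups, by amounts that varied. Summed Hoxb was at 20.7 CPM in control and 9.30 in cKO in Hsd11b2 cells, 36.1 and 19.2 in Inmt cells, 17.2 and 12.3 in Cilp cells, 36.3 and 7.15 in Cyp26b1 cells, and 18 and 11.1 in cells with none of the 4. Summed Hoxc was at 13.2 and 6.65 CPM in Hsd11b2 cells, 28.6 and 12.1 in Cilp cells, and 22.5 and 12.6 in cells with none of the 4. It was at 26.7 (34 UMIs) and 22.4 (7 UMIs) in Inmt cells and rested on 2 UMIs and 1 UMI in Cyp26b1 cells. Hoxc6 in Cilp cells was at 9.80 and 1.98 CPM, a ratio of 0.202. Hoxb9 in cells with none of the 4 was at 4.20 CPM (14 UMIs) and 1.67 (9 UMIs).

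Muscle cells shared the posterior Hoxa and Hoxd genes of the stroma, with more of the Hoxa side. Hoxa10 was at 83.6 CPM (63.8 to 108) in control Actg2 cells and 179 (157 to 203) in cKO. Hoxd11 was at 98.9 CPM (77.2 to 125) and 177 (156 to 201). These 2 genes had overlapping levels in both libraries, unlike in stroma, where Hoxd11 stood above Hoxa10. Hoxa9 was at 44.6 CPM (32 UMIs) and 41.5 (56 UMIs), Hoxd10 at 44.6 (32 UMIs) and 77.1 (104 UMIs), and Hoxa11 at 32 (23 UMIs) and 46.0 (62 UMIs). Compared with control stroma, 3 of 19 Hox genes were at least 2-fold higher in control muscle, Hoxa7, Hoxa9 and Hoxa11, beside 13.8% of all genes, and 4 were at least 2-fold lower, Hoxb4, Hoxc9, Hoxd4 and Hoxd9, beside 14.7%. Both shares are near the background, 8 of 13 gene ratios of this comparison changed sign under another setting, and Hoxb4 turned from -1.01 to 0.20 (log2) with other gate genes ignored. Hoxa9 was 2.90-fold higher (1.90 to 4.31) and Hoxd11 was at 0.992 of the stromal level. In the cKO library 12 of 22 were at least 2-fold higher in muscle, beside 15% of all genes, and none was lower, beside 12.4%. The 12 included Hoxa7 at 21.0-fold (10.7 to 41.8) and Hoxa9 at 4.02-fold, and summed Hoxb was 6.20-fold higher (4.77 to 7.99). Over the other settings, 5 of the 16 gene ratios of this comparison changed sign.

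Between genotypes, 4 of 10 Hox genes were at least 2-fold higher in cKO muscle (Hoxa10, Hoxb2, Hoxd8 and Hoxd9), beside 6.15% of all genes, and none was at least 2-fold lower, beside 4.44%. Summed over all members the ratio was 1.81 (1.58 to 2.06), or 0.85 on the log2 scale. The median log2 ratio of the 10 was 0.82, against 0.09 over all genes. Hoxa10 was at 2.14 times control (1.61 to 2.89) and Hoxd11 at 1.79 times (1.37 to 2.37), close to their stromal ratios of 2.06 and 1.74. Hoxd9 was at 3.61 times (1.78 to 8.27), on 9 control UMIs, and Hoxd8 at 2.26 times (1.19 to 4.66). Hoxa9 was at 0.932 times. Each of the 4 calls was under 2-fold in at least 1 other setting, with lowest log2 ratios of 0.94 for Hoxa10 and Hoxd9, 0.69 for Hoxb2 and 0.16 for Hoxd8, and all 4 stayed above 0. Stromal markers summed to 1867 CPM in control Actg2 cells and 1916 in cKO. Other sums differed, with red cell markers at 76.6 and 1882 CPM, epithelial markers at 229.8 and 20.02 and blood endothelial markers at 127 and 9.64. Their part in the muscle ratios was not tested. The median depth was 1499 and 1495 UMIs per cell.

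Mesothelial cells had the highest Hox level, with large parts from Hoxa (39.9% and 26.15%), Hoxc (32.3% and 38.8%) and Hoxd (20.25% and 28.1%). Hoxd11 was at 75.2 CPM in control Msln cells and 116 in cKO, and Hoxc8, which patterns the thorax, at 75.2 (43.8 to 120) and 130.3 (91.3 to 180.4). Hoxc10 was at 88.5 CPM (54.0 to 137) and 83.3 (52.8 to 125), and Hoxa5, a gene of lung and neck development, at 88.5 (54.0 to 137) and 72.4 (44.2 to 112). With 17 to 36 UMIs behind each value, no order among these 4 genes was tested. Hoxa10 was at 48.7 and 39.8 CPM and Hoxa7 at 39.8 and 36.2. Against control stroma, Hoxc8 was 19.1-fold higher (9.91 to 35.6), Hoxa5 17.0-fold (9.43 to 29.7), Hoxc10 14.5-fold (8.15 to 24.9) and Hoxa7 14.2-fold. These were among 9 of 19 Hox genes at least 2-fold higher, beside 19.6% of all genes. Hoxd9 was the 1 gene lower, beside 19.4%, with no count in 25 control cells. In cKO 13 of 22 were at least 2-fold higher, beside 27.5%, with summed Hoxc 39.5-fold higher (30.9 to 50.1), and 1 was lower, Hoxa10, beside 12.1%. Single cells weighed heavily here. A single cell held 47.1% of the control and 33.3% of the cKO UMIs of Hoxc8, 39.1% of those of Hoxc10 in cKO and 35% of those of Hoxa5 in control.

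Leukocytes held few Hox transcripts, and the leading gene was Hoxb4, known for self-renewal of blood stem cells. Hoxb4 had 33 UMIs in control Ptprc cells, 6.68 CPM (4.60 to 9.38), and 78 in cKO, 7.36 (5.82 to 9.18), in 4.81% and 4.32% of cells. Hoxb3 was at 2.43 CPM (12 UMIs) and 2.64 (28 UMIs). Hoxb6 and Hoxb8, the leading genes of the epithelium, had 1 and 1 UMI in control and 0 and 2 in cKO. By marker, Hoxb4 was at 2.42 (4 UMIs) and 1.18 CPM (1 UMI) in C1qa cells (macrophages), 3.72 (2 UMIs) and 4.92 (8 UMIs) in Cd3e cells (T cells), and 9.68 (19 UMIs) and 10.4 (60 UMIs) in cells with none of C1qa, Ncr1, Cd3e and Flt3. Ncr1 cells (natural killer cells) had 4 and 3 Hoxb4 UMIs. Their summed Hoxb was at 32.1 CPM (5 UMIs) in control and 10.3 (3 UMIs) in cKO. It was at 17.3 and 15.6 in cells with none of these genes, and at 4.17 and 4.07 in Flt3 cells. In C1qa cells it was at 5.44 and 2.37, and in Cd3e cells at 3.72 and 5.53. Hoxd11 had 2 UMIs in control and 40 in cKO leukocytes. Of the 81 posterior Hoxa and Hoxd UMIs of cKO leukocytes, 55 lay in cells that also held Col1a1, and 13 of the 30 cells with such a UMI held Col1a1, against 3.41% of the others. In control 2 of 21 such UMIs and 2 of 14 such cells were with Col1a1. Of the 92 cKO leukocytes with a Hoxb UMI, 4 held Col1a1.

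Hoxb and posterior Hoxa and Hoxd UMIs were also counted cell by cell. When every cell was thinned to 5000 UMIs, 265 of 520 control epithelial cells held a Hoxb UMI and no posterior Hoxa or Hoxd UMI, 4 held the reverse and none held both. In cKO the numbers were 19, 3 and 1 of 42 epithelial cells. Thinning left out 401 control and 17 cKO epithelial cells, 152 and 178 stromal cells, 264 and 445 muscle cells and 269 and 690 leukocytes with fewer UMIs. Most stromal cells with a Hox UMI held the posterior kind. In control 221 of 456 held a posterior Hoxa or Hoxd UMI alone, 16 a Hoxb UMI alone and 27 both, and in cKO 836, 25 and 35 of 1231. In muscle 19 control cells held the posterior kind alone, 0 Hoxb alone and 1 both, and in cKO 33, 2 and 10. Any Hoxb gene was found in 51.0% of control epithelial cells (46.6 to 55.3), 9.43% of stromal cells and 4.8% of leukocytes at that depth, and in 47.6%, 4.87% and 4.78% in cKO. Without thinning the epithelial shares were 61.6% and 52.5%. Any posterior Hoxa or Hoxd gene was found in 54.4% of control stromal cells (49.7 to 59.0) and 70.8% of cKO (68.1 to 73.3), against 0.769% and 9.52% of epithelial cells and 1.77% and 2.15% of leukocytes. The muscle shares were 74.1% of 27 control and 76.8% of 56 cKO cells.

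**Figure D5:**
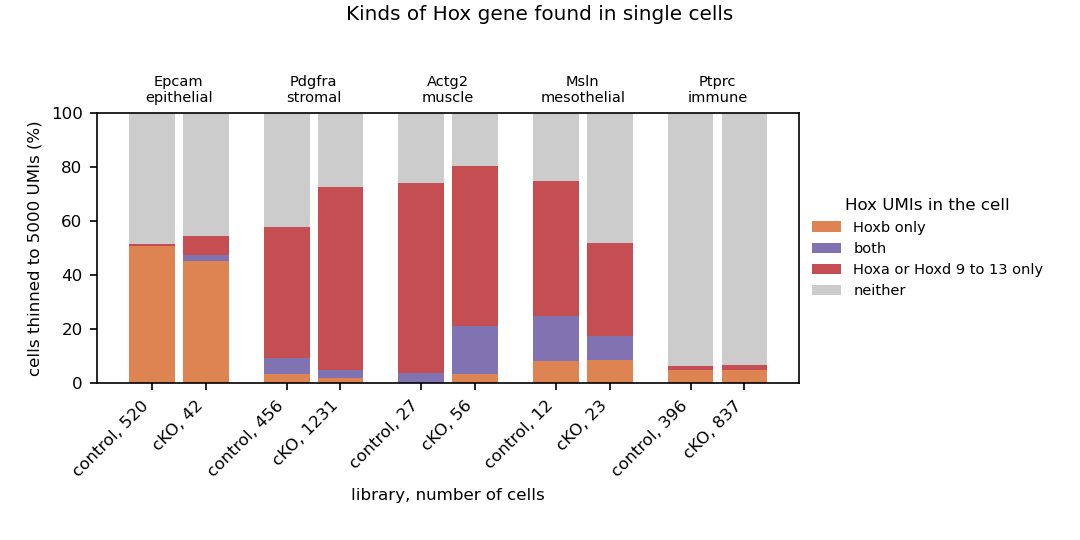
Stacked bars of the share of cells (percent, each cell thinned to 5000 UMIs) that held only Hoxb UMIs, only posterior Hoxa or Hoxd UMIs, both or neither, by gated class and library. In control, 265 of 520 epithelial cells fall in the Hoxb part and 221 of 456 stromal cells in the posterior part.

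Pairs of Hox genes were counted in single stromal cells, with no test between pairs. At 5000 UMIs, the neighbours Hoxd10 and Hoxd11 gave Hoxd11 in 62.7% of control cells with Hoxd10 and in 23.9% of those without it. In cKO these shares were 60.3% and 42.5%. Hoxa11 lies on another chromosome and gave a like pattern in control, with Hoxd11 in 55.9% of cells with Hoxa11 (37.9 to 72.8) and 26.8% without. In cKO those shares were 53.9% and 44.9%, with overlapping intervals, and at 1000 UMIs they were 8.57% and 15.04%. With Hoxa10, also on that chromosome, Hoxd11 was found in 37.3% of control cells and in 27.1% without it, with overlapping intervals, and in 56.2% and 42.0% in cKO. The neighbours Hoxa10 and Hoxa11 gave 8.43% with Hoxa10 and 7.24% without in control, and 22.6% and 8.35% in cKO. In control epithelium Hoxb7 was found in 10.3% of cells with its neighbour Hoxb6 and 11.8% without. Hoxb8 was found in 23.1% with Hoxb6 (14.3 to 34.0) and 15.4% without, and in 15.9% with Hoxb2 and 16.6% without, all with overlapping intervals. Of 520 control epithelial cells, 95 held at least 2 different Hoxb genes.

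At least 50 UMIs in a class of 1 library were counted for 19 genes, and the other 20 stayed below that count in every class. Among these 20, Hoxc10 reached 48 UMIs, Hoxd3 42, Hoxc8 36 and Hoxa3 31. Hoxa3 had a ratio of cKO to control of 1.005 in stroma, with an interval from 0.480 to 2.30. The anterior genes Hoxa2 and Hoxd1 reached 5 and 7 UMIs, and the terminal genes Hoxc12, Hoxc13, Hoxd12 and Hoxd13 reached 1, 5, 1 and 4. Hoxb13 had no UMI in any class of either library. For Hoxb13 in stroma, 0 of 1409 cKO cells allows a share of up to 0.213% of cells with a UMI, taking 3 counts as the limit. Hoxa13, at 15 UMIs in cKO stroma, was the highest of the genes of the last paralog group.

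The partners and regulators of Hox proteins were compared between the libraries in the same way, beside 6.07% of all genes at least 2-fold higher and 6.65% lower in stroma, and 21.9% higher and 11.8% lower in epithelium. Of 9 TALE genes, 8 could be tested in stroma and 1 was at least 2-fold higher in cKO, Pknox2, at 12.3 CPM in control and 26.6 in cKO, a ratio of 2.15 (1.74 to 2.70). Meis2 was at 143 CPM in control epithelium and 39.3 in cKO, the 1 TALE gene past 2-fold there, and Meis1 at 38.9 and 19.7. Of the 13 Polycomb and trithorax genes, none of the 12 tested in stroma and none of the 12 tested in muscle was past 2-fold. In epithelium 2 were at least 2-fold higher and 1 lower.

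Genes linked to Hoxa10 in the uterus and other transcription factors of uterine mesenchyme were set beside the Hox genes. Itgb3, an integrin chain of the receptive endometrium described as under Hoxa10 control, was at 37.5 CPM in control stroma and 123 in cKO, a ratio of 3.29 (2.92 to 3.72). Emx2, described as repressed by Hoxa10, was at 153 and 133 CPM. Itgb3 was the 1 of 4 such genes tested in stroma that was past 2-fold, and none was at least 2-fold lower, beside 6.07% and 6.65% of all genes. In muscle Itgb3 was at 22.3 CPM in control and 25.2 in cKO. There 2 of the 4 were at least 2-fold higher, Ptger3 (46.0 and 99.4 CPM) and Ptger4 (23.7 and 63.8). None was at least 2-fold lower in muscle, where the shares of all genes were 6.15% and 4.44%. Among 9 mesenchymal factors tested there, the 1 past 2-fold upwards was Hand2. Hand2, a progesterone-induced factor of the stroma, was at 2.92 and 25.6 CPM, a ratio of 8.77 (5.79 to 13.9). The 3 that were at least 2-fold lower were Gata4, Gata6 and Tbx2, with Gata6 at 81.1 and 19.7 CPM. Hotairm1, a non-coding RNA at the anterior end of Hoxa, was at 44.2 and 72.4 CPM in mesothelium and 5.85 and 2.76 in stroma. Hoxa11os, antisense to Hoxa11, was at 7.88 and 10.9 CPM in stroma.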

How the data were processed

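Dissociated cells of whole uteri were sequenced as 10x Genomics 3′ libraries, 1 for each genotype, each a pool of 3 mice, per the labels. The authors deposited unfiltered matrices of raw UMI counts made with Cell Ranger on build mm10. The submitters' processing notes give version 6.1.1, and the matrix headers name version 4.

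Counts were read with Python 3.11.15, numpy 2.4.6, scipy 1.17.1 and pandas 2.3.3, and drawn with matplotlib 3.10.9. Cells with at least 500 genes and at most 20% mitochondrial UMIs were kept and gated as described above. Cells with several gate genes (215 in control, 400 in cKO) or none (928 and 1022) were left out, which removes some doublets. No doublet caller was run. Counts were summed per class and library and divided by the class total. Levels have exact Poisson intervals, ratios exact conditional binomial intervals and shares Clopper-Pearson intervals, all at 95% and for counting error only. A fold against a count of 0 uses a floor of 3 counts. Ratios are named for genes with at least 20 UMIs over both groups, and a gene is past 2-fold on the ratio alone. Every member with at least 50 UMIs in a class of 1 library is described by value, and others where a comparison names them. With 1 library for each genotype no p-value was computed. The intervals were tested on simulated data. Alternatives covered filters, gates, weighting and depth. The genes, gates and lists were chosen with earlier results of these data known. Values of some genes are not reported here.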

Additional observations from a re-analysis of the deposited data

How the results depend on the processing

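Each ratio was recomputed under 9 alternatives of cell filter, gate, weighting and depth, and under 1 scaling to the median of all genes, which was chosen after seeing the data. Over 128 gene ratios this gave 1241 values. A total of 1052 were counted as the same, 185 as moved outside the counting interval of the reported value, and 4, counted apart, as reversed. Values with the other sign than the reported value numbered 87, from 38 of the ratios. Of these, 4 came from ratios reported as past 2-fold. The log2 ratio of summed Hox of cKO to control in stroma was 0.53, and 0.29 with each cell weighing the same, 0.26 with cells thinned to 1000 UMIs and 0.46 without the 5% deepest cells. In muscle it was 0.85, and 1.18 with thinning. For epithelium to stroma in control it was -0.96, and -1.14 with at most 10% mitochondrial UMIs, -0.82 with other gate genes ignored, -1.06 with thinning, -0.80 without the deepest cells and -0.64 with the scaling. In cKO it was -1.27, and -0.52 with other gate genes ignored, -1.06 with the gate gene of most UMIs, -0.52 with each cell weighing the same, -0.58 with thinning and -0.31 without the deepest cells. The count of 13 stromal Hox genes past 2-fold was 0 with thinning, where few genes reach 20 UMIs. Of these genes, the thinned log2 ratios of Hoxc6 (-3.03), Hoxb4 (-2.23) and Hoxb5 (-1.23) were past 2-fold, and those of Hoxa10 (0.64), Hoxa11 (-0.06), Hoxd4 (0.26), Hoxb3 (-0.64) and Hoxb9 (-0.64) were not. The ratios past 2-fold that changed direction were Hoxa11 of cKO to control in stroma (-0.06 with thinning), Hoxb4 of muscle to stroma in control (0.20 with other gate genes ignored), and Hoxa5 and Hoxa9 of epithelium to stroma in cKO (1.82 and 0.26 with other gate genes ignored). The causes were not tested, beside the fewer UMIs that thinning leaves. No paired analysis was possible because each group is 1 library. Small classes, such as the 59 epithelial cKO cells and the 25 and 32 mesothelial cells, limit the precision of their values.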

Other observations

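Lymphatic endothelial cells, taken as cells outside the 5 gates with a UMI of Mmrn1 or Prox1, showed a further Hox profile. There were 20 such cells in control and 47 in cKO. Their summed Hox level was 330 CPM (265 to 405) in control and 195 (170 to 224) in cKO, exact 95% intervals for counting error only. Hoxd8 and Hoxd9 led rather than Hoxd11. Hoxd9 was at 105 CPM (70.3 to 151) in control and 27.8 (18.6 to 39.9) in cKO, and Hoxd8 at 83.3 (52.8 to 125) and 49.8 (37.2 to 65.3). Hoxa10, the leading Hoxa gene of stroma, had 0 UMIs in control and 3 in cKO. Hoxa7 was at 29 and 18.2 CPM and Hoxd10 at 21.7 and 20.1. The Hoxc cluster had no UMI in these cells of either library.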
